A study of Triticum aestivum with 18 samples.

Results

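The 100 genes described here had no read in any Sadash library and were read in Nanda, and they lie outside 2 blocks of chromosomes 1B and 1D that were left out. They were chosen by measured values. Transcript counts were summed for each of the 107892 high-confidence genes of the wheat annotation and rounded, and genes at 0 in all 9 Sadash libraries were kept unless their identifiers fell within TraesCS1B02G000800 to TraesCS1B02G150500 or TraesCS1D02G424800 to TraesCS1D02G454700. Of the 4616 genes left with a Nanda count, the 100 with the highest mean CPM (read counts scaled to the library total) over the 9 Nanda libraries were taken. The difference between Nanda and Sadash is therefore the choice itself and carries no test below, and the ranking used the mean over all Nanda libraries. Differences between stages within Nanda and the values of the genes beside the members were not part of the rule. The ranking mean can however come from a single stage, and a gene read at that stage alone could enter through it. The size of the stage change of such a member is therefore not independent of the choice.

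Nanda and Sadash are spring wheat cultivars, and the labels name no transgene and no drug. Microspores were isolated from cold-treated spikes and cultured, and RNA was taken on Day 0 (microspores), Day 7 (proembryos) and Day 21 (embryo-like structures), with 3 libraries called biological replicates for each of the 6 groups. RNA came from pooled material, and the labels do not say what was kept separate between replicates, so p-values measure the spread between these libraries. In such bulk samples, fewer cells of a type and less RNA per cell cannot be told apart.

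Bread wheat is a hexaploid with A, B and D subgenomes, so that most genes have near-identical copies, or homoeologs, on the other subgenomes. Cultivars differ in gene content, and a gene of the reference may be missing from a cultivar, be replaced there by an introgressed segment from a relative, or be present and silent. In microspore embryogenesis, stressed immature pollen leaves the pollen pathway and divides into a proembryo, which then forms an embryo-like structure without fertilization. RNA counts cannot tell a missing gene from a silent one, and read division among near-identical copies leaves the values of such copies uncertain.

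Library totals ran from 6675262 to 27463269 counts. The stage labels were checked with 3 genes each for microspores and pollen, proembryos and embryo-like structures. In Nanda the proembryo genes (among them a match to BABY BOOM, an inducer of embryos) summed to 0.0409 ± 0.0372 CPM on Day 0, 46.0 ± 3.20 CPM on Day 7 and 45.1 ± 8.08 CPM on Day 21 (SD, n = 3 each). Most of this sum was the BABY BOOM match, at 38.2 ± 1.92 CPM on Day 7 and 44.9 ± 8.08 CPM on Day 21. The rest of the list fell from Day 7 to Day 21, TraesCS6A02G307500 from 4.98 ± 1.62 to 0.184 ± 0.108 CPM and TraesCS6B02G336100 from 2.87 ± 0.236 to 0.041 ± 0.0355 CPM. The embryo-like structure genes, among them a vicilin storage protein, summed to 1250 ± 110 CPM on Day 21 in Nanda. The microspore genes summed to 67.6 ± 4.15, 93.9 ± 5.84 and 4.36 ± 0.721 CPM on Day 0, Day 7 and Day 21, so that this list was not highest on Day 0. One of its genes, the pollen extensin TraesCS5D02G376200, averaged 0.680 ± 0.307 CPM on Day 0 and 83.8 ± 5.93 CPM on Day 7, while the other two were highest on Day 0. One library stood apart, since Nanda Day 7 replicate 3 held 78.5 CPM of the embryo-like structure genes, against 0.639 and 0.555 CPM in the other Day 7 libraries of Nanda.

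The members were counted in Nanda and not in Sadash. Their mean Nanda level ran from 1.90 to 34.1 CPM with a median of 4.06 CPM, and each had between 263 and 4604 counts over the 9 libraries. At the same level, the Sadash libraries would have held 248 counts of the lowest member and 4445 counts of the highest. A count of 0 among the 130470586 Sadash counts allows a level of up to 0.023 CPM (3 counts over all 9 libraries, counting error only), so that the members were at least 82.7-fold to at least 1482-fold higher in Nanda, a difference fixed by the way they were selected. Before rounding, 99 of the 100 summed to exactly 0 in all Sadash libraries, and the largest value of the remaining member was 0.27 expected counts. All 100 passed the filter for testing (at least 1 CPM in at least 1 of 18 libraries), 73 had counts in all 9 Nanda libraries, and 88 had counts at every Nanda stage.

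The member with the highest mean CPM, TraesCS2A02G243200 on chromosome 2A, is listed in the study's tables under response to cold. It had 35.0, 34.2 and 35.1 CPM on Day 0, 42.5, 37.5 and 33.6 CPM on Day 7 and 32.5, 30.6 and 27.3 CPM on Day 21 in Nanda. These are 3 stages at nearly one level, and its coefficient of variation over the 9 libraries was 0.124. The log2 fold change of Day 21 over Day 0 was -0.21 ± 0.146 (SE, adjusted p = 0.23, edgeR). Per unit of transcript length it was also the highest of the 10 members with the highest mean CPM, at a mean of 72.9 TPM (counts scaled by transcript length and library) in Nanda.

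TraesCS3B02G037400 had by contrast a sharp maximum on Day 7. Its Nanda values were 1.16, 0.601 and 1.14 CPM on Day 0, 70.8, 74.8 and 79.8 CPM on Day 7 and 9.67, 6.42 and 3.82 CPM on Day 21. The stages did not overlap, and both steps were called (a call needs a log2 fold change of 1 or more in either direction together with an adjusted p below 0.01). The log2 fold change was 6.32 ± 0.364 for Day 7 over Day 0 (adjusted p = 2.2e-08, edgeR) and -3.50 ± 0.296 for Day 21 over Day 7 (adjusted p = 7.7e-07). No description of this gene was found in the tables used here.

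TraesCS4B02G024300 and TraesCS4B02G024400 are next to each other on chromosome 4B and both ended low. TraesCS4B02G024300 had 54.0, 52.4 and 52.8 CPM on Day 0, 32.0, 39.5 and 27.7 CPM on Day 7 and 8.13, 6.48 and 6.23 CPM on Day 21 in Nanda. TraesCS4B02G024400 averaged 19.9 ± 1.58 CPM on Day 0, 22.5 ± 4.96 CPM on Day 7 and 7.52 ± 0.552 CPM on Day 21 (SD, n = 3 each). Both fell on Day 21 against Day 7, with a log2 fold change of -2.25 ± 0.182 for TraesCS4B02G024300 (adjusted p = 5.4e-07, edgeR) and of -1.58 ± 0.209 for TraesCS4B02G024400 (adjusted p = 3.9e-05). The other members among the 10 with the highest mean were TraesCS7D02G205900, TraesCS1A02G383500 and 4 genes of the clusters described further on. TraesCS7D02G205900 averaged 14.9 ± 0.848, 17.2 ± 2.31 and 29.5 ± 3.00 CPM on Day 0, Day 7 and Day 21, and its log2 fold change of 0.99 ± 0.176 for Day 21 over Day 0 (adjusted p = 0.00026) stayed just under the fold required for a call.

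**Figure D1:**
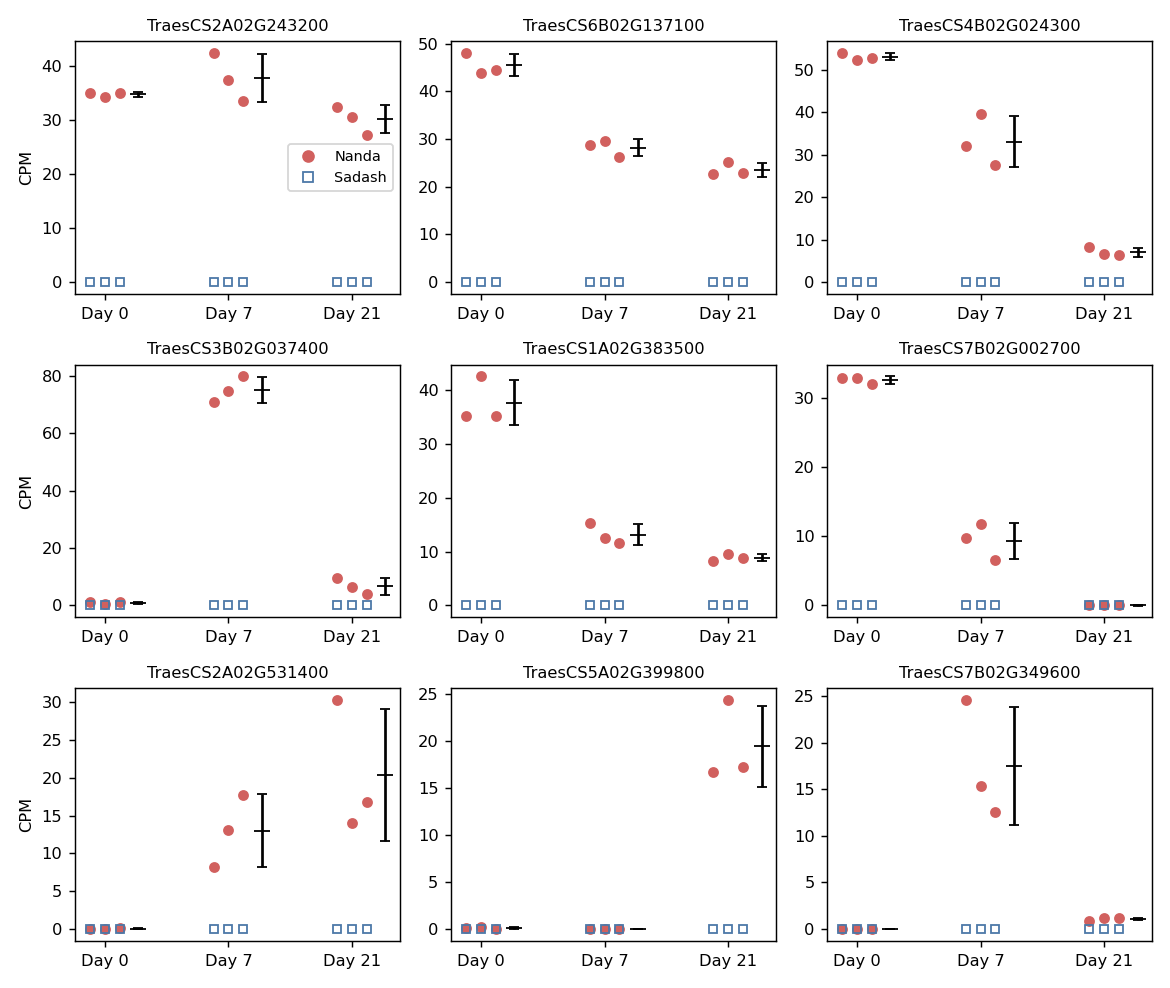
Levels of 9 members in every library, in TMM-normalized CPM, by day of culture. Filled circles are the Nanda libraries, open squares the Sadash libraries, all at 0, and the bars give the Nanda mean ± SD of 3 libraries; TraesCS2A02G243200 stays between 27.3 and 42.5 CPM, TraesCS3B02G037400 peaks on Day 7, and TraesCS5A02G399800 is high on Day 21 alone.

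For 11 of the members a description, a gene ontology term or a set of homoeologs was found in the supplementary tables used here, so the function of the others is not given. TraesCS2B02G561300 and TraesCS2B02G561400, adjacent members described as a wound-responsive family, named for induction by injury, had the same calls. TraesCS2B02G561300 had no count in the 3 Day 0 libraries of Nanda, 5.88, 5.15 and 10.3 CPM on Day 7 and 18.3, 10.1 and 12.5 CPM on Day 21. Against the limit set by 3 counts over the 3 Day 0 libraries, it was at least 109-fold higher on Day 7 and at least 210-fold higher on Day 21. TraesCS2B02G561400 averaged 0.0409 ± 0.0372 CPM on Day 0, 6.81 ± 0.722 CPM on Day 7 and 12.2 ± 3.90 CPM on Day 21, and the rise on Day 7 over Day 0 was 7.04 ± 0.551 on the log2 scale (adjusted p = 3.4e-07, edgeR).

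TraesCS7B02G349600, matched to a BTB/POZ and MATH domain protein of Arabidopsis, a family of adaptors that bring proteins to a ubiquitin ligase, was read mainly on Day 7. It had no count on Day 0, 24.6, 15.4 and 12.5 CPM on Day 7 and 0.890, 1.12 and 1.14 CPM on Day 21 in Nanda. It was thus at least 269-fold higher on Day 7 than on Day 0, and its log2 fold change of Day 21 over Day 7 was -4.05 ± 0.387 (adjusted p = 8e-06, edgeR). TraesCS2A02G531400, listed without an informative description, had 0, 0 and 0.0813 CPM on Day 0, 8.19, 13.1 and 17.8 CPM on Day 7 and 30.3, 14.0 and 16.8 CPM on Day 21. The values of Day 7 and Day 21 overlapped, and those of Day 0 lay below all of them.

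Other described members were highest in microspores. TraesCS5B02G440000, a subunit of the general transcription factor TFIIA, which helps to place RNA polymerase II at promoters, had 7.20, 8.51 and 9.67 CPM on Day 0, 1.34, 1.03 and 1.18 CPM on Day 7 and 0.0593, 0.0589 and 0 CPM on Day 21. It fell in both steps, with a log2 fold change of -2.82 ± 0.400 for Day 7 over Day 0 (adjusted p = 6.7e-05, edgeR) and of -4.62 ± 0.636 for Day 21 over Day 7 (adjusted p = 5.4e-05). TraesCS6A02G037000, listed under protein dephosphorylation, averaged 16.8 ± 0.170 CPM on Day 0, 6.07 ± 1.22 CPM on Day 7 and 1.66 ± 0.636 CPM on Day 21 and also fell in both steps. TraesCSU02G064800, on a scaffold without a chromosome and listed under carboxylic acid catabolism, was called lower on Day 21 than on Day 0 (log2 fold change -1.35 ± 0.392, adjusted p = 0.0081), whereas TraesCS1B02G395800, listed under translation, had a log2 fold change of -1.02 ± 0.386 there and missed the threshold (adjusted p = 0.032).

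TraesCS1A02G383500, also listed under translation, was the only member in the part of the homoeolog list held here (1999 sets of A, B and D copies). In Nanda it had 35.3, 42.6 and 35.3 CPM on Day 0, 15.3, 12.6 and 11.5 CPM on Day 7 and 8.31, 9.55 and 8.84 CPM on Day 21, and it was called lower on Day 7 than on Day 0 (log2 fold change -1.52 ± 0.184, adjusted p = 1.7e-05, edgeR). Its B copy TraesCS1B02G409800 averaged 17.6 ± 2.52 CPM in Nanda and 25.8 ± 1.57 CPM in Sadash on Day 0, and 12.1 ± 1.32 and 12.9 ± 3.65 CPM on Day 21. Its D copy TraesCS1D02G391600 averaged 3.85 ± 0.323 CPM in Nanda and 5.19 ± 0.753 CPM in Sadash on Day 0, 1.77 ± 0.120 and 0.992 ± 0.382 CPM on Day 7, and 2.83 ± 0.655 and 3.24 ± 0.258 CPM on Day 21. Neither copy was called between Nanda and Sadash on any day by edgeR or DESeq2, where 10.6% of all tested genes were called on Day 0, 12.8% on Day 7 and 12.6% on Day 21. At an unadjusted p under 0.05, 1 of the 2 copies passed on Day 0, 1 on Day 7 and 0 on Day 21. For the B copy the log2 fold change was -0.55 ± 0.246 on Day 0, 0.48 ± 0.260 on Day 7 and -0.07 ± 0.254 on Day 21. For the D copy it was -0.43 ± 0.266, 0.83 ± 0.313 (adjusted p = 0.049, edgeR) and -0.20 ± 0.272 on the 3 days.

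The members were spread over 18 chromosomes and unanchored scaffolds, with the B subgenome holding 49 of the 100. Of all tested genes, 33.1% are on B chromosomes, and the share was 33.1% also among the 44384 tested genes with a mean Nanda level at least that of the lowest member. The A subgenome held 30 members (32.4% of tested genes), the D subgenome 15 (33.2%), and 6 lay on unanchored scaffolds (1.32%). Chromosome 6B held the most, 15 members against 4.19% of the tested genes, followed by 2B and 3B with 10 each (5.42% and 5.40%) and 2A with 7 (5.32%). No member was on 3A, 5D or 6D. The members on 1B started at TraesCS1B02G395800, far from the block left out, and the single member on 1D was TraesCS1D02G065900.

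The same rule turned round, genes at 0 in all 9 Nanda libraries ranked by mean Sadash CPM outside the same blocks, gave 4385 genes, of which the first 100 had 24.7 to 1.55 CPM in Sadash. Their chromosomes differed from those of the members: 27 were on 2D, where 5 members were, and 4 on 6B, where 15 members were, while 3B held 13 of them. By subgenome, A, B and D held 28, 32 and 36 of them. Both sets were chosen by the readout, so these counts are a description.

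**Figure D2:**
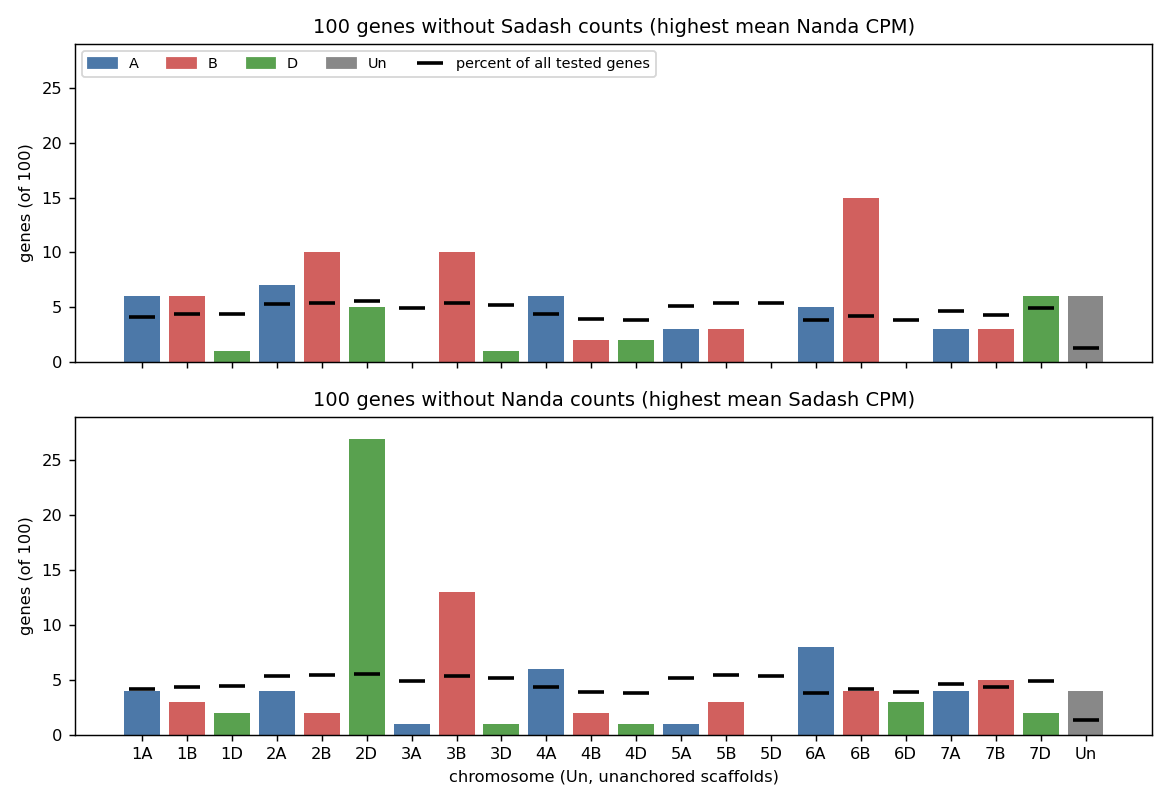
Number of genes per chromosome (of 100) among the members (top) and among the 100 genes without Nanda counts that had the highest mean Sadash CPM (bottom), coloured by subgenome. The black marks give the percentage of all tested genes on each chromosome; 6B stands highest in the upper panel with 15 genes and 2D in the lower panel with 27.

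The identifiers number the genes along each chromosome, and the deposited tables hold no coordinates, so distance was counted in high-confidence genes. Of the members, 31 fell into 13 groups in which one member followed the next within 10 genes, and 63 of those on chromosomes fell into none. Of these groups, 9 were pairs and 4 were clusters of at least 3 members, which held 13 members together. The cluster count depends on the settings: a step of at most 5 genes gave 7 members in clusters and one of at most 25 gave 18, and ranking by mean Nanda TPM in place of CPM left 3.

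The cluster with the most members was TraesCS6B02G208200 to TraesCS6B02G208600 on 6B, in which 4 of 5 consecutive genes were members. TraesCS6B02G208600 had 35.5, 25.2 and 27.1 CPM on Day 0, 26.99, 20.4 and 21.9 CPM on Day 7 and 32.5, 26.6 and 26.2 CPM on Day 21 in Nanda. TraesCS6B02G208500 averaged 16.5 ± 3.74, 12.5 ± 2.77 and 20.6 ± 0.708 CPM on the 3 days, and TraesCS6B02G208200 averaged 3.57 ± 0.478, 1.44 ± 0.782 and 2.31 ± 0.279 CPM. None of these 3 was called between stages, whereas the fourth member, TraesCS6B02G208300, was called lower in every stage contrast (named after its values were seen). It averaged 28.2 ± 1.55 CPM on Day 0, 13.3 ± 2.93 CPM on Day 7 and 6.02 ± 2.03 CPM on Day 21, with a log2 fold change of -2.23 ± 0.273 for Day 21 over Day 0 (adjusted p = 1e-05, edgeR). The gene between them that was no member, TraesCS6B02G208400, had 131 counts in Nanda and 1 in Sadash, and beyond the cluster TraesCS6B02G208900 was read in both cultivars, at 154 CPM in Nanda and 101.8 CPM in Sadash.

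Also on 6B, TraesCS6B02G137000, TraesCS6B02G137100 and TraesCS6B02G137200 are consecutive. TraesCS6B02G137100 had 48.0, 43.9 and 44.5 CPM on Day 0, 28.8, 29.6 and 26.1 CPM on Day 7 and 22.5, 25.2 and 22.9 CPM on Day 21, without a call. The log2 fold change of Day 21 over Day 0 was -0.95 ± 0.139 for TraesCS6B02G137100 (adjusted p = 5.3e-05, edgeR), short of the fold required for a call. Its neighbour TraesCS6B02G137200, listed under calcium ion transport, had 15.6, 17.0 and 18.1 CPM on Day 0, 4.60, 5.78 and 3.54 CPM on Day 7 and 0.0593, 0 and 0 CPM on Day 21. Its log2 fold change of Day 21 over Day 7 was -7.34 ± 0.581 (adjusted p = 4.3e-07, edgeR). For Day 21 over Day 0 it was -9.20 ± 0.551 (adjusted p = 1.2e-08), so that from Day 0 to Day 21 these adjacent members both fell, but by unlike amounts. TraesCS6B02G137000 averaged 2.17 ± 0.135, 3.21 ± 0.746 and 1.82 ± 0.260 CPM on the 3 days. To the left of the cluster, TraesCS6B02G136400 was read in both cultivars, at 8.19 CPM in Nanda and 7.78 CPM in Sadash.

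The 7D cluster ran from TraesCS7D02G457200 to TraesCS7D02G458000 and lay in a longer stretch with few Sadash counts. From TraesCS7D02G455700 to TraesCS7D02G458100, 25 genes in a row averaged under 1 CPM in Sadash. Together these 25 had 170 counts over the 9 Sadash libraries and 16411 over the 9 Nanda libraries. Of them, 7 averaged at least 1 CPM in Nanda. TraesCS7D02G457200 averaged 28.5 ± 0.493, 15.9 ± 0.756 and 21.5 ± 0.746 CPM on Day 0, Day 7 and Day 21 in Nanda, and TraesCS7D02G458000 averaged 8.94 ± 0.296, 6.39 ± 0.942 and 7.46 ± 0.507 CPM. Within the stretch, TraesCS7D02G457700 averaged 12.2 CPM in Nanda, against 0.250 CPM in Sadash, and TraesCS7D02G456600 averaged 61.1 CPM in Nanda, against 0.200 CPM in Sadash, and their few Sadash counts kept them out of the members (both named after their values were seen). The next gene after the stretch, TraesCS7D02G458200, was read in both cultivars and averaged 6.16 CPM in Nanda, against 3.51 CPM in Sadash.

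The 3B cluster was looser, with TraesCS3B02G498900, TraesCS3B02G499500 and TraesCS3B02G500600 among 14 genes, of which 9 were tested. TraesCS3B02G498900 averaged 2.52 ± 0.759 CPM on Day 0, 5.61 ± 1.66 CPM on Day 7 and 11.3 ± 1.91 CPM on Day 21 and was called higher on Day 21 than on Day 0 (log2 fold change 2.14 ± 0.338, adjusted p = 9.8e-05, edgeR). TraesCS3B02G500600 averaged 8.46 ± 0.494, 10.2 ± 2.26 and 8.84 ± 0.0627 CPM, among the smallest spreads of all members. Genes between them were read in both cultivars, such as TraesCS3B02G499300 with 4.25 CPM in Nanda and 8.07 CPM in Sadash. Directly beside TraesCS3B02G500600, TraesCS3B02G500700 went the other way, with 4 counts in Nanda and 714 in Sadash.

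**Figure D3:**
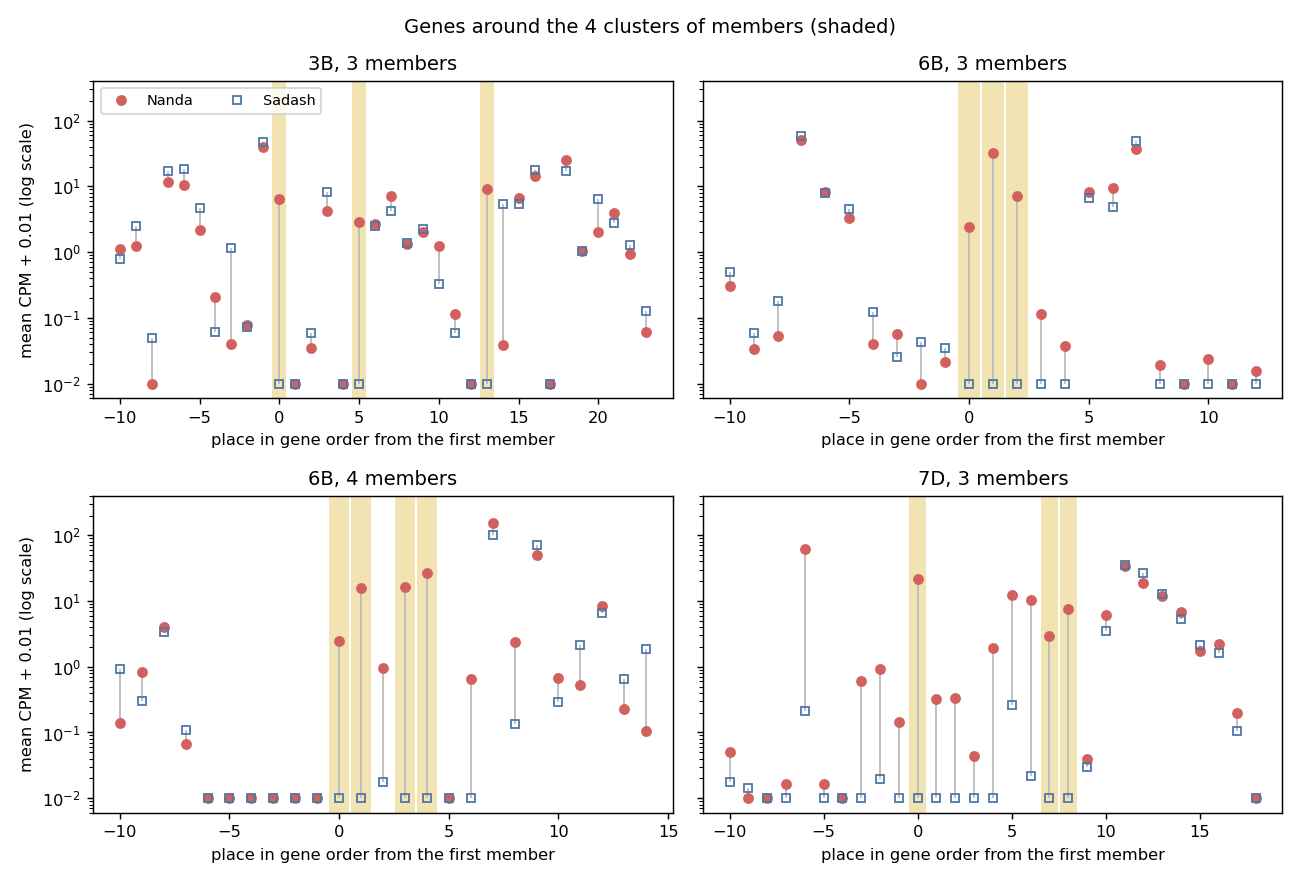
Mean level of each high-confidence gene around the 4 clusters, in CPM plus 0.01 on a log axis, against its place in gene order counted from the first member of the cluster. Filled circles are Nanda means and open squares Sadash means over 9 libraries each, shaded places are members, and a point at 0.01 had no count; the 7D panel shows a run of genes low in Sadash, while the 3B members alternate with genes read in both cultivars.

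A larger share of the genes directly beside a member than of genes elsewhere was called higher in Nanda. Of the 164 genes on either side of members that were not members themselves, 88 were tested, and 5 of these had no Sadash count. On Day 0, 18 of the 88 (20.5%) were called higher in Nanda than in Sadash and 5 were called lower, where 4.43% of tested genes outside the blocks were called higher and 5.18% lower. On Day 7 the counts were 18 higher and 6 lower (background 5.78% and 6.10%), and on Day 21 they were 27 higher and 4 lower (5.90% and 5.66%). Within 3 genes on either side, 258 were tested, with 14.3%, 17.1% and 19.8% called higher and 7.75%, 8.14% and 7.36% called lower on Day 0, Day 7 and Day 21. The neighbours of the reversed set leaned the other way, with 36, 37 and 29 of 98 called lower in Nanda on the 3 days (36.7%, 37.8% and 29.6%) and 4, 5 and 6 called higher. On Day 0 and Day 7 these shares were larger than the 20.5% called higher beside members. Tandem copies beside a member may share reads with it.

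On all 3 days, 9 of the 88 neighbours were called higher in Nanda, against 0.553% of tested genes outside the blocks, and 1 was called lower. Beside TraesCS1B02G410900, both flanking genes were among them (genes of this paragraph were named after their values were seen). TraesCS1B02G410800 averaged 44.1 ± 2.94 CPM in Nanda and 6.28 ± 1.13 CPM in Sadash on Day 0 (log2 fold change 2.81 ± 0.230, adjusted p = 5.4e-08, edgeR). TraesCS2D02G566500 averaged 13.6 ± 3.35 CPM in Nanda and 0.189 ± 0.207 CPM in Sadash on Day 0, and it had 9 counts over all Sadash libraries, against 1671 in Nanda. TraesCS6A02G041000 was near the low end, with 10.5 ± 1.09 CPM in Nanda and 5.02 ± 0.922 CPM in Sadash on Day 0. The smallest log2 fold change on Day 0 was that of TraesCS6A02G044600, 1.01 ± 0.266 (adjusted p = 0.0082, edgeR).

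Within Nanda, more members were called lower than higher on Day 21 against either earlier stage, and the split on Day 7 against Day 0 changed with the libraries fitted. On Day 7 against Day 0, 12 members were called higher and 19 lower, where 18.5% and 15.2% of all tested genes were called. On Day 21 against Day 7, 13 were higher and 32 lower, beside a background of 15.8% and 18.3%. On Day 21 against Day 0, 25 were higher and 35 lower, beside 25.9% and 24.6%. The median log2 fold change of the members was -0.22, -0.29 and -0.30 in the 3 contrasts, beside 0, -0.05 and 0 over all tested genes. The quartiles of the members ran from -1.07 to 0.57, from -2.10 to 0.73 and from -2.49 to 1.38, a wider span than the distance between these medians.

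Without Nanda Day 0 replicate 2, 12 members were called higher and 10 lower on Day 7 than on Day 0, and without Nanda Day 7 replicate 2 the counts were 14 and 11, so that more were then higher than lower. Every fit without a single library gave fewer lower calls, 10 to 14. Shares over all tested genes are not given for those fits, so a general loss of calls cannot be told apart. A fit of only the 9 Nanda libraries gave 13 higher and 25 lower, beside 19.6% and 18.9% of all its genes. On the TPM scale (limma-trend on log2(TPM + 1)), where the median of all genes for Day 21 over Day 7 shifted to 0.16, the split was 22 higher and 24 lower, beside 18.3% and 9.90% of all tested genes on that scale. Higher calls made up 47.8% of the members' calls there and 64.9% of those over all genes, against 28.9% and 46.3% on the count scale. The members' median on that scale was 0.05 for Day 21 over Day 7 and -0.03 for Day 21 over Day 0. Without Nanda Day 7 replicate 3, the library with the embryo-like structure transcripts, the counts for Day 21 against Day 7 were 14 higher and 32 lower.

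**Figure D4:**
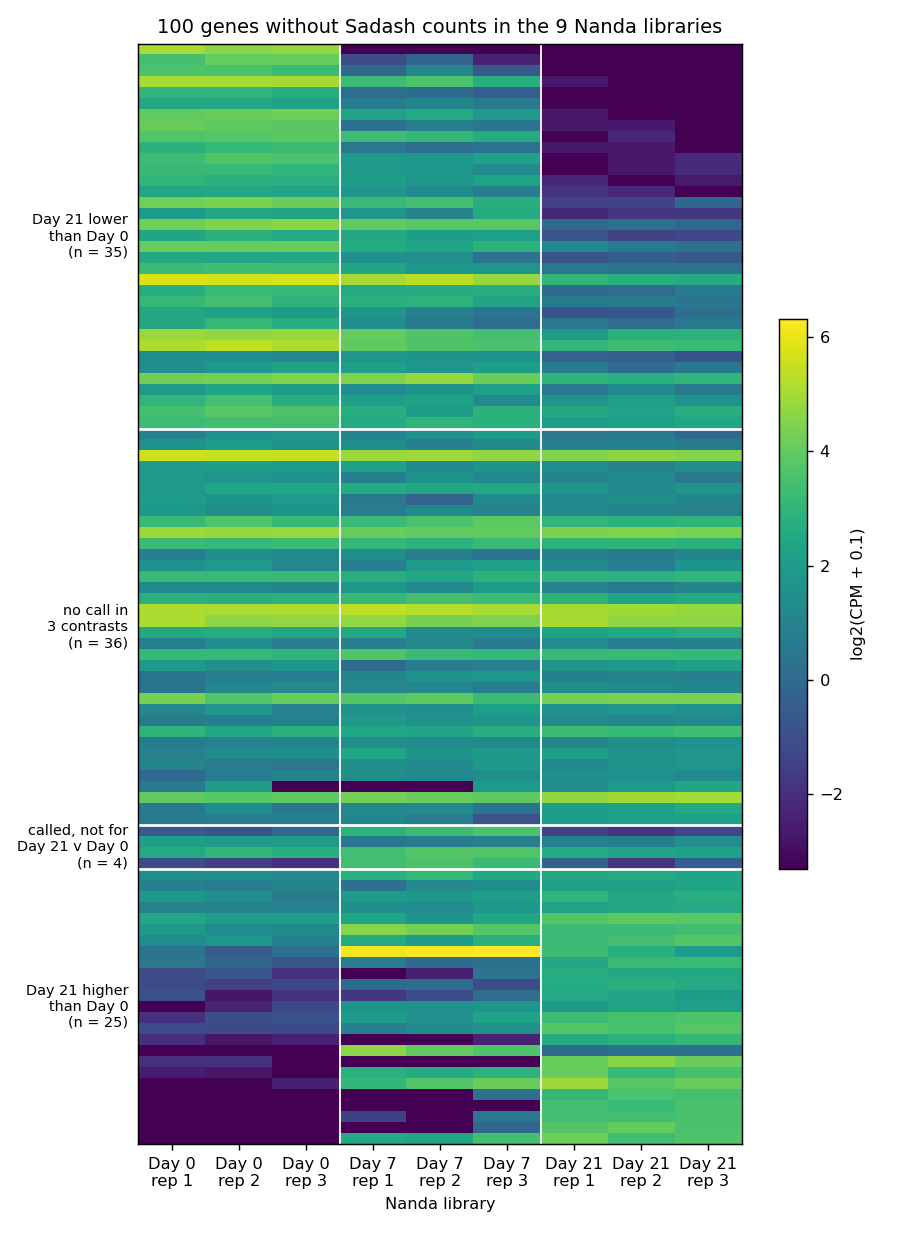
Level of the 100 members in the 9 Nanda libraries as log2(CPM + 0.1), one row per gene, sorted by the change of Day 21 over Day 0 within blocks. The top block holds the 35 members called lower on Day 21 than on Day 0, the next the 36 with no call in any contrast, then 4 called in other contrasts alone, and the lowest the 25 called higher; members of the first block darken by Day 21 and those of the last are dark on Day 0.

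Over the 3 contrasts, 36 members had no call, close to the 36.8% of all tested genes. In the fit of all libraries, the most frequent course with a call was a fall in both steps, which 14 members showed and which 3.77% of all tested genes showed (4.62% of the genes at the members' level). Their Day 0 means ran from 5.05 to 32.7 CPM with a median of 13.1 CPM, and their Day 21 means from 0 to 6.02 CPM with a median of 0.0394 CPM. This course needs a lower call on Day 7 against Day 0, and 10 of those 19 calls held whichever single library was left out. Without Nanda Day 0 replicate 2, 10 members in all were called lower there, so 14 is not a firm count. A further 13 members (7.57% of tested genes) were not called on Day 7 against Day 0 and were called lower on Day 21 than at both earlier stages, 11 (8.33%) were called higher only on Day 21, and 6 (8.53%) were called higher on Day 7 and again on Day 21 against Day 0. The mean was highest on Day 0 in 45 members, on Day 7 in 23 and on Day 21 in 32, beside 37.7%, 26.1% and 36.2% of all tested genes.

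TraesCS4D02G085600 had the steepest fall. It had 32.9, 24.98 and 26.7 CPM on Day 0 and no count in any Nanda library of Day 7 or Day 21, at least 369-fold lower on Day 7. TraesCS7B02G002700 had 33.0, 32.9 and 32.0 CPM on Day 0, 9.78, 11.8 and 6.62 CPM on Day 7 and 0.0593, 0 and 0 CPM on Day 21. Its log2 fold change of Day 21 over Day 7 was -8.36 ± 0.518 (adjusted p = 5e-08, edgeR). Its left neighbour TraesCS7B02G002600, also a member, was among the 11 called higher only on Day 21, so the pair moved in opposite directions.

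TraesCS2A02G557800 had 11.0, 16.4 and 16.5 CPM on Day 0, 0.384, 0.792 and 0.0907 CPM on Day 7 and none on Day 21, at least 242-fold lower on Day 21 than on Day 0. TraesCS2B02G535000 averaged 11.3 ± 1.53 CPM on Day 0 and 1.14 ± 0.749 CPM on Day 7 and had no count on Day 21, at least 186-fold lower than on Day 0. TraesCS5A02G009500 averaged 15.5 ± 1.29, 1.36 ± 0.268 and 0.0394 ± 0.0341 CPM on the 3 days. TraesCSU02G176000 and TraesCS1B02G461200 also ended at or near 0, the first with no count on Day 21 after 5.05 ± 0.363 CPM on Day 0, the second with 0.0393 ± 0.0681 CPM after 13.5 ± 0.674 CPM.

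At the other end, TraesCS5A02G399800 had 0.145, 0.150 and 0 CPM on Day 0, none on Day 7 and 16.7, 24.4 and 17.2 CPM on Day 21, at least 255-fold higher on Day 21 than on Day 7. TraesCS2D02G396400 was read on Day 21 alone, at 10.7, 9.02 and 11.5 CPM, at least 136-fold above Day 7. TraesCS4A02G309600 averaged 7.30 ± 1.22 CPM on Day 21, against 0.0302 ± 0.0524 CPM on Day 7 (log2 fold change 7.74 ± 0.735, adjusted p = 2.2e-06, edgeR). On Day 21 TraesCS2B02G008700 averaged 13.6 ± 2.22 CPM and TraesCS7D02G185600 10.9 ± 0.568 CPM, at least 208-fold and at least 167-fold above Day 0, when neither had a count. On Day 7 TraesCS2B02G008700 was read in Nanda replicate 3 alone, at 0.816 CPM, and TraesCS7D02G185600 had 0.256, 0 and 1.36 CPM, again highest in the library with embryo-like structure transcripts, whose part in these Day 7 values was not tested.

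**Figure D5:**
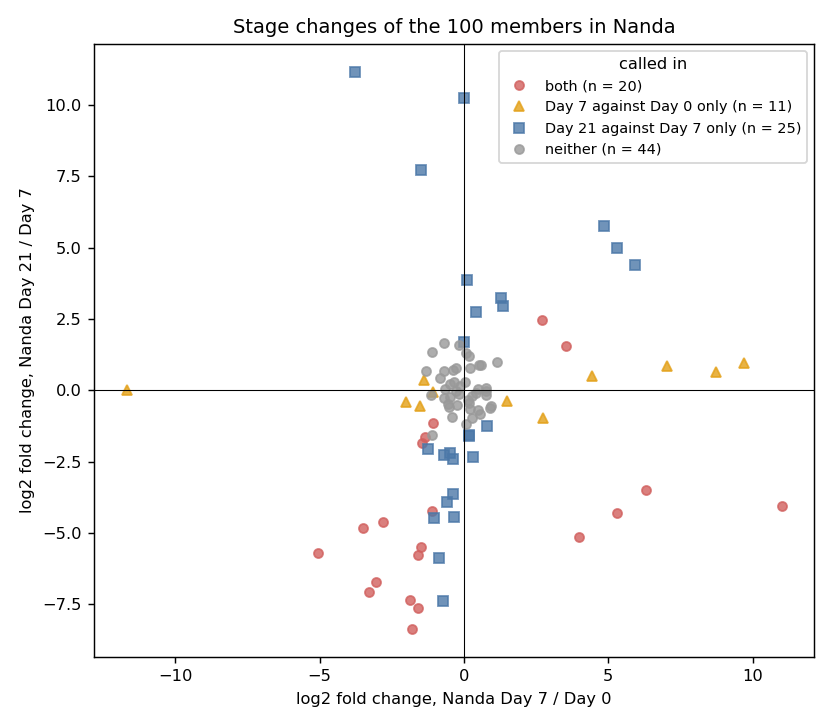
Log2 fold change of each member between stages in Nanda, Day 7 over Day 0 on the horizontal axis and Day 21 over Day 7 on the vertical axis, marked by the contrast in which it was called. Of the 100 members, 20 were called in both steps, 11 in the first alone, 25 in the second alone and 44 in neither; called members fill the lower left, where both steps fall, more than the upper right.

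The members with the smallest spread over all Nanda libraries were TraesCS6A02G039700, TraesCS2A02G243200 and TraesCS3B02G500600, with coefficients of variation of 0.121, 0.124 and 0.154. TraesCS6A02G039700 had 9.38, 8.71 and 9.76 CPM on Day 0, 8.50, 6.97 and 8.98 CPM on Day 7 and 7.36, 7.84 and 7.19 CPM on Day 21. Its left neighbour TraesCS6A02G039600 is also a member and fell in both steps. Over the 11 pairs of members next to each other, 5 pairs had their highest mean on the same day and 5 had the same set of calls. The latter include TraesCS6B02G137000 with TraesCS6B02G137100, TraesCS6B02G208500 with TraesCS6B02G208600 and TraesCS7D02G457900 with TraesCS7D02G458000, which shared only the absence of a call.

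The limits of the choice were not sharp. The last members were TraesCS2D02G555400 with 1.90 CPM at rank 99 and TraesCS5B02G044800 with 1.90 CPM at rank 100, and the first genes left out were TraesCS2B02G416900 with 1.86 CPM and TraesCS7D02G457600 with 1.80 CPM, which lies within the 7D cluster. A further 91 genes outside the blocks reached the members' level in Nanda with 1 to 9 Sadash counts in all, 22 of them with a single count. Of all genes outside the blocks with a mean of at least 1 CPM in Nanda, 139 of 49686 (0.280%) had no Sadash count, against 63 of 600 (10.5%) in the 1B block and 7 of 139 (5.04%) in the 1D block.

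Among the 83 members with 1 listed transcript, the ratio of counts to TPM, which scales with effective transcript length, had a median of 0.895 relative to tested genes with 1 transcript. It was under 0.5 in 26 of them (31.3%), beside 15.1% of the 42611 genes with such a ratio. Short genes thus took a larger share of the members than of the genes at large.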

How the data were processed

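RNA from pooled cultures of both cultivars was sequenced in 18 libraries. Per the submitters' notes, reads were trimmed with Trimmomatic 0.39, aligned with STAR 2.7.5a and quantified with RSEM 1.3.3. The authors deposited expected counts per transcript, estimated by RSEM and not normalized, and the TPM of the same transcripts. Expected counts were added up per high-confidence gene, leaving out low-confidence genes, and then rounded. The 62692 genes that reached 1 CPM in 1 or more libraries were normalized by TMM and fitted with edgeR 4.0.16 (quasi-likelihood test, all 18 libraries, one level per group), with Benjamini-Hochberg adjustment over all of them. DESeq2 1.42.0 and limma 3.58.1 were used as alternatives, under R 4.3.3. The fit was tested on simulated data. Gene levels are TMM-normalized CPM, and ranks use CPM on library totals. The SE of a log2 fold change was derived from the test, as its absolute value divided by the square root of the F statistic. A fold against a group at 0 uses 3 counts over the libraries of that group. The members and lists were chosen with earlier results of these data known. Named genes are the 10 members with the highest mean, the 3 largest calls per contrast and direction, the first, last and 2 highest members of each cluster, described members, ranks 99 to 102 and the 3 smallest coefficients of variation. Descriptions come from the study's supplementary tables, and no sequence or coordinate was used.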

Additional observations from a re-analysis of the deposited data

How the results depend on the processing

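The counts of called members changed by less than 1.5 times under DESeq2, RLE size factors, other filters and fits of fewer libraries, apart from members higher on Day 21 than on Day 7, which were 22 on log2(TPM + 1) and 25 on log2(TPM + 0.1) in place of 13. The share of all tested genes called higher in that contrast rose too, to 18.3% and 22.7% in place of 15.8%. Without single libraries, members lower on Day 7 than on Day 0 numbered 10 to 14 in place of 19, and the share over all tested genes is not given for those fits. The replicate numbers did not pair the libraries (correlations of same-numbered deviations from -0.0805 to 0.0645). With a replicate block, 12 members were higher and 15 lower for Day 7 against Day 0, beside 17.9% and 14.4% of all tested genes. The counts were 13 and 32 for Day 21 against Day 7 (14.9% and 17.7%), and 23 and 33 for Day 21 against Day 0 (25.3% and 24.1%). Members in clusters were 7 at a step of 5 genes, 3 when ranked by TPM, 3 in the top 50 and 31 in a list of double length, and the B subgenome held 24 genes of the top 50 and 93 of the longer list. Ranking by TPM kept 70 of the 100 members, and 41 of the 100 genes of that ranking were on B chromosomes, in place of 49. The neighbour counts were added after seeing the data. Neighbours higher in Nanda stayed within 1.5 times; those lower numbered 3 to 6 on Day 0 without single libraries, 10 on log2(TPM + 0.1) and 3 in a fit of the 6 libraries on Day 7, and 1 on log2(TPM + 1) on Day 21. The cause was not tested. Depth limits the choice, since a gene of 0.023 CPM in Sadash could have gone unread.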

Other observations

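A member with an uneven presence among replicates was TraesCS2B02G372300, noticed after its values were seen. In Nanda it had 1.45, 4.11 and 0 CPM on Day 0, 0, 0 and 3.72 CPM on Day 7 and 2.43, 3.60 and 5.15 CPM on Day 21, so that libraries of one stage held either none or several CPM of it. It was called in no stage contrast.

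On Day 7, TraesCS3B02G597900 and TraesCS2B02G055000 shared the pattern given for TraesCS2B02G008700. TraesCS3B02G597900 had 8.43, 12.0 and 10.9 CPM on Day 21, against 0, 0 and 1.09 CPM on Day 7. TraesCS2B02G055000 had 6.11, 5.48 and 5.66 CPM on Day 21, against 0, 0.0792 and 1.18 CPM on Day 7. In each, the highest Day 7 value was that of Nanda replicate 3, which held 78.5 CPM of the embryo-like structure genes.

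Among the genes kept out by a few Sadash counts, TraesCS5A02G384300 had the highest mean, 101.8 CPM in Nanda, with 13881 counts there and 8 in Sadash, and TraesCS7A02G503000 followed with 96.7 CPM, with 12388 counts in Nanda and 1 in Sadash. Both exceed every member in mean Nanda CPM, so that the 100 genes are those without any Sadash count and not those with the largest Nanda mean among genes nearly unread in Sadash. The folds of the members are lower limits, so the widths of the differences cannot be ranked.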
